A study of Rattus norvegicus with 36 samples.

Results

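Genes of the ionotropic glutamate receptors were followed across brain region and choice preference: Grin1, Grin2a and Grin2b, which encode the NMDA receptor subunits GluN1, GluN2A and GluN2B, and Gria1, which encodes the AMPA receptor subunit GluA1. They are 4 of the 32623 genes listed in the count files, and were taken by Ensembl identifier: ENSRNOG00000011726 for Grin1, ENSRNOG00000033942 for Grin2a, ENSRNOG00000008766 for Grin2b and ENSRNOG00000045816 for Gria1. The identifiers come with the definition of the set. The gene table used here lists no Ensembl identifiers (0 of the 32623 matched), so the pairing of identifier and symbol was not checked against it. All 4 genes had counts in every library and passed the filter on low counts in every comparison.

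The samples were prefrontal cortex (PFC, described as medial in the extraction protocol) and nucleus accumbens (NAc, part of the ventral striatum) of 19 Sprague Dawley rats (spelled Sparague Dawley in the labels). All of the rats had been trained in the rat gambling task, in which an animal chooses among light signals that carry rewards and punishments of different size and probability. By their settled choices 9 were called risk-averse and 10 risk-seeking, and training is common to all groups compared. The 36 libraries form 4 groups of 9 (PFC risk-averse, PFC risk-seeking, NAc risk-averse, NAc risk-seeking), and 17 animals gave both regions. The labels give neither age nor sex.

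The NMDA receptor is a glutamate-gated channel that passes calcium when glutamate binds while the membrane is depolarised, and it is known as a trigger of synaptic plasticity. GluN1 is present in every such receptor, while the GluN2 subunits set its kinetics: channels with GluN2A close faster than those with GluN2B, and in cortex the share of GluN2A rises during postnatal development. AMPA receptors carry most fast excitatory current, and GluA1 is known for its activity-dependent delivery to synapses. In cortex these receptors are found on glutamatergic and GABAergic neurons, and in the NAc on the spiny projection neurons that receive cortical input.

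Between 18436025 and 34761269 counts fell on genes in each library. Behind each value of Grin2a stood 492 to 1969 counts, behind Grin2b 569 to 1507, behind Gria1 3907 to 9522 and behind Grin1 11817 to 22692. Levels are given as CPM, the counts scaled to library size with TMM factors. CPM are not divided by transcript length, so levels are compared between groups within a gene and not between genes. In tissue, fewer cells that express a gene and less RNA per cell cannot be told apart. The dissected regions were not checked against marker genes here, because those genes could not be paired with identifiers.

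Between the regions, Grin2a differed by more than the other members. Grin2a was at 28.6, 48.1 and 84.0 CPM (lowest, median and highest of 18 PFC libraries) and at 19.4, 28.0 and 43.7 CPM in the 18 NAc libraries. The ranges overlap, but in each of the 17 animals with both regions the PFC value was the higher, from 1.13 to 3.04 times the NAc value. The log2 fold change of PFC over NAc was 0.75 ± 0.11 (SE), a 1.68-fold difference (edgeR adjusted p = 8.76e-08, 36 libraries).

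Grin2b was also higher in PFC, by less. It was at 25.2, 36.3 and 63.8 CPM in PFC and 19.2, 33.4 and 47.7 CPM in NAc (lowest, median and highest), with a log2 fold change of 0.27 ± 0.10 (SE, edgeR adjusted p = 0.0106). Among the 17 animals, 13 had the higher value in PFC. These were 9 of 9 risk-averse animals and 4 of 8 risk-seeking ones.

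Gria1 went the other way. It was at 170.02, 209.6 and 256 CPM in PFC and 202, 239.6 and 285 CPM in NAc (lowest, median and highest), with a log2 fold change of -0.20 ± 0.05 (SE, edgeR adjusted p = 0.000181). Only 1 of the 17 animals, a risk-averse one, had more in PFC. The PFC value ranged from 0.758 to 1.09 times the NAc value of the same animal.

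Grin1, the subunit common to all NMDA receptors, was at 553, 646 and 796 CPM in PFC and at 496, 628 and 767 CPM in NAc. Its log2 fold change of 0.08 ± 0.04 (SE) did not pass over all 36 libraries (edgeR adjusted p = 0.0940). With the animal as a replicate block over the 17 pairs the estimate was the same, at 0.08 ± 0.03 (SE), and passed (edgeR adjusted p = 0.0293). Of the 17 animals, 12 had the higher Grin1 value in PFC. Of the 4 receptor genes 3 passed without the block, 2 higher and 1 lower in PFC. Of all 15936 genes tested between regions 77.3% passed, 38% higher and 39.3% lower, so these counts are near the background. The fits over 36 libraries leave out the pairing within animals. With the block, Grin2a was at 0.75 ± 0.09, Grin2b at 0.27 ± 0.08 and Gria1 at -0.19 ± 0.03 (SE). Their edgeR adjusted p were then 3.06e-07, 0.00406 and 5.67e-06. All 4 genes thus passed with the block, as did 13046 of the 15985 genes tested.

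**Figure D1:**
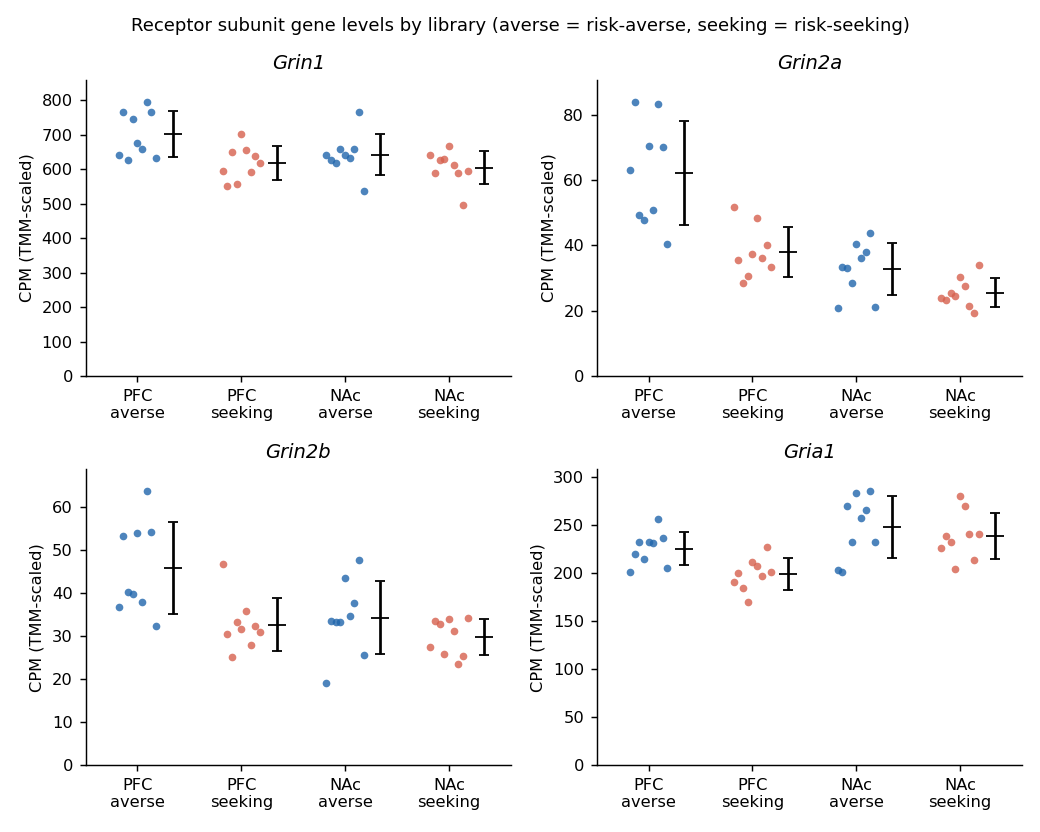
Level of each gene in every library, in TMM-scaled CPM with the axis from 0; each point is 1 library, and the bar beside each group is the mean ± SD of its 9 libraries. Within PFC the risk-seeking points lie lower than the risk-averse ones for all 4 genes, with overlap, for example Grin2a at 28.6 to 51.6 CPM against 40.4 to 84.0 CPM in risk-averse PFC.

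The study's own question was how risk-averse and risk-seeking animals differ, and in PFC all 4 genes were lower in the risk-seeking animals. Over all 15128 genes tested there 23.3% passed, and 11.4% were lower in risk-seeking animals. Risk-averse PFC held 62.1 ± 15.9 CPM of Grin2a and risk-seeking PFC 38.02 ± 7.69 CPM (means ± SD of 9 libraries each). The lowest, median and highest libraries were at 40.4, 63.0 and 84.0 CPM and at 28.6, 36.2 and 51.6 CPM. The groups overlap, with all 9 risk-seeking libraries below the risk-averse median and 7 of them below every risk-averse library. The log2 fold change was -0.72 ± 0.15 (SE), which is 0.607-fold (edgeR adjusted p = 0.00608). Of the 15128 genes tested, 0.264% had a lower fold change.

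Grin2b followed the same order. Risk-averse PFC held 45.9 ± 10.6 CPM and risk-seeking PFC 32.8 ± 6.12 CPM (means ± SD of 9 libraries each), with lowest, median and highest values of 32.3, 40.4 and 63.8 CPM and of 25.2, 31.7 and 47.0 CPM. The risk-seeking animal B5 was the highest of its group, and 8 of 9 risk-seeking libraries were below the risk-averse median. The log2 fold change was -0.50 ± 0.13 (SE, edgeR adjusted p = 0.0142).

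Grin1 and Gria1 were lower by a smaller amount. Grin1 was at 702 ± 66.4 CPM in risk-averse animals and at 618 ± 49.1 CPM in risk-seeking ones (means ± SD of 9 libraries each). It ranged from 628 over a median of 677 to 796 CPM in risk-averse PFC and from 553 over 618 to 702 CPM in risk-seeking PFC, and 8 of 9 risk-seeking libraries were below the risk-averse median. The fitted difference was -0.19 on the log2 scale, with an SE of 0.06 and an edgeR adjusted p of 0.0249. The call held on leaving out any 1 of 16 of the 18 libraries. It was lost without risk-averse animal R4 (-0.17, edgeR adjusted p = 0.0574) or R7 (-0.17, edgeR adjusted p = 0.0543), at a similar size. Gria1 was at 226 ± 17.01 CPM and 199 ± 16.4 CPM (means ± SD of 9 libraries each). It ranged from 201 over 231 to 256 CPM in risk-averse PFC and from 170.02 over 200.4 to 227 CPM in risk-seeking PFC, where all 9 libraries were below the risk-averse median. The fitted difference was -0.19 on the log2 scale, with an SE of 0.05 and an edgeR adjusted p of 0.0164.

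The 4 receptor genes had a median log2 fold change of -0.34, and all genes one of 0.01. The number of calls over all genes depended on single animals: 3521 genes passed with all 18 PFC libraries and 2264 without risk-averse animal B3, where the 4 receptor genes still passed.

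Shares of the HTSeq read categories also differed between the preference groups in PFC. Counts assigned to no gene (the unassigned share, over these plus gene and ambiguous counts) made up 25.01% ± 1.98 in risk-averse animals and 23.3% ± 0.666 in risk-seeking ones (means ± SD of 9 libraries each). The ambiguous share, of counts that overlapped genes, was 0.655% ± 0.0417 and 0.719% ± 0.0331, and the not-unique share, of all alignments, was 12.9% ± 0.535 and 13.5% ± 0.185. With the unassigned share as a covariate the log2 fold changes were -0.67 for Grin2a, -0.54 for Grin2b, -0.19 for Grin1 and -0.25 for Gria1, of which only Gria1 passed (edgeR adjusted p = 0.0572, 0.0724, 0.121 and 0.0383). The loss extended over all genes: 334 of 15128 passed in this fit, against 3521 without a covariate. With the ambiguous share the same order of genes gave -0.26, -0.22, -0.13 and -0.11, and none passed (edgeR adjusted p = 0.761, 0.777, 0.762 and 0.768), with 0 calls over all genes (902 at an unadjusted edgeR p under 0.05). With the not-unique share it gave -0.41, -0.28, -0.12 and -0.16, and none passed (edgeR adjusted p = 0.383, 0.489, 0.523 and 0.386), with 1 call over all genes. The 4 PFC libraries of highest unassigned share were all risk-averse (animals B2, B3, BR9 and R7). Without them Grin2a was at -0.64, Grin2b at -0.49, Grin1 at -0.14 and Gria1 at -0.22, and none passed (edgeR adjusted p = 0.133, 0.161, 0.278 and 0.129), with 1 call among the 15403 genes then tested. The shares are computed from the same counts as the genes, and their part in the preference differences was not tested beyond these fits. The unassigned share was also higher in NAc, at 27.6% in risk-averse and 25.7% in risk-seeking animals. No fit of region or of the interaction held a share as a covariate, so the part of the shares in region differences was not tested.

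**Figure D2:**
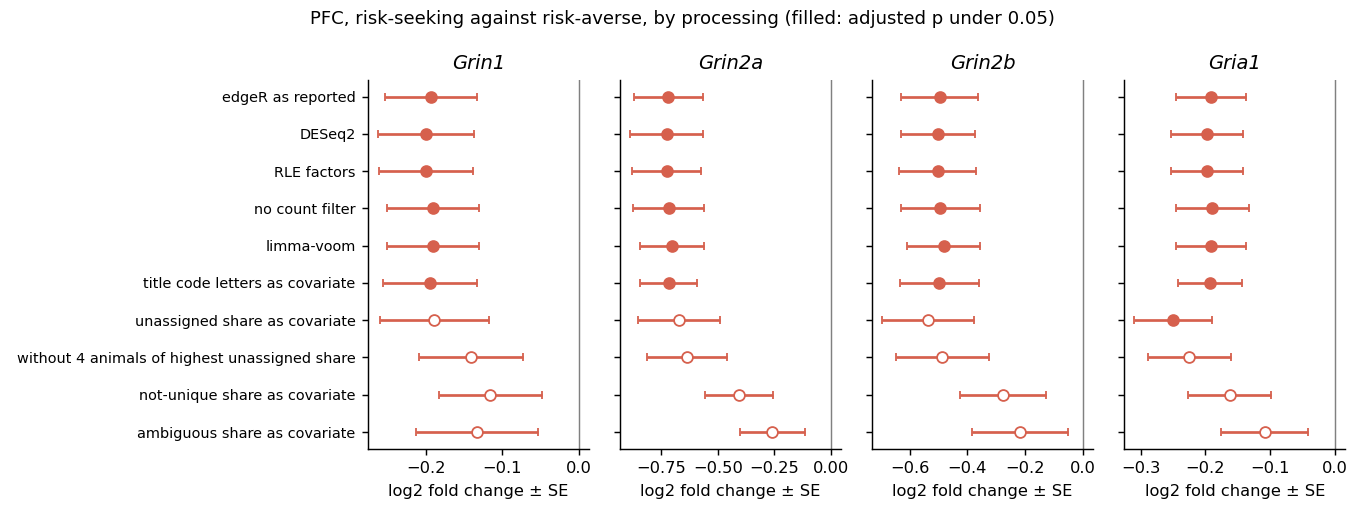
Log2 fold change of risk-seeking over risk-averse PFC for each gene under each way of processing, with bars for the standard error and filled points where the adjusted p was under 0.05; each panel has its own x axis. Every point lies below 0, and Grin2a goes from -0.72 as reported to -0.26 with the ambiguous share as a covariate.

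Animals carry a letter code in their titles (B, BR, N or R), whose meaning is not given in the sources used here. Within each of these letters Grin2a was lower in risk-seeking PFC, at 0.593 of the risk-averse mean for B, 0.609 for BR, 0.707 for N and 0.567 for R (2 or 3 libraries a side, with no test). Grin2b was also lower within each letter, at 0.860, 0.728, 0.733 and 0.608 in the same order, and so was Gria1, at 0.928, 0.794, 0.904 and 0.896. Grin1 was lower within B, BR and R, at 0.815, 0.877 and 0.842, and at 1.02 within N. In NAc, Grin2a was lower in risk-seeking animals within each letter, at 0.870, 0.813, 0.691 and 0.779. So was Grin1 in NAc, at 0.971, 0.985, 0.978 and 0.832. Grin2b and Gria1 were higher in risk-seeking NAc within B, at 1.16 and 1.15. Within BR, N and R they were lower there, Grin2b at 0.880, 0.756 and 0.806 and Gria1 at 0.870, 0.974 and 0.870.

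In NAc none of the 4 genes passed between preferences. Grin2a came closest, with 32.8 ± 8.02 CPM in risk-averse animals and 25.6 ± 4.48 CPM in risk-seeking ones (means ± SD of 9 libraries each). The lowest, median and highest libraries were at 20.8, 33.4 and 43.7 CPM and at 19.4, 24.6 and 34 CPM, and 8 of 9 risk-seeking libraries were below the risk-averse median. The fitted difference was -0.37 on the log2 scale, with an SE of 0.13 and an edgeR adjusted p of 0.158. Without risk-averse animal R9 it passed, at a log2 fold change of -0.43 (edgeR adjusted p = 0.0450). R9 had 21.2 CPM, next to the lowest of its group. Without the lowest, risk-averse animal B2 at 20.8 CPM, the log2 fold change was also -0.43 but did not pass (edgeR adjusted p = 0.139). The unadjusted edgeR p was 0.00242 without R9 and 0.00198 without B2. Over all genes, 944 passed without R9 and 0 without B2.

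The other 3 genes also overlapped between preferences in NAc. Grin2b was at 34.3 ± 8.54 CPM in risk-averse animals and 29.8 ± 4.20 CPM in risk-seeking ones (means ± SD of 9 libraries each; edgeR adjusted p = 0.401), and the 95% interval of its log2 fold change ran from -0.47 to 0.06. Grin1 was at 642 ± 59.04 and 605 ± 48.4 CPM (edgeR adjusted p = 0.406), with an interval from -0.22 to 0.03. Of the risk-seeking NAc libraries 8 of 9 were below the risk-averse median for Grin1, 6 of 9 for Grin2b and 7 of 9 for Gria1. Gria1 was at 248 ± 31.9 and 238 ± 24.05 CPM (edgeR adjusted p = 0.683), with an interval from -0.21 to 0.08. In edgeR 0% of the 15418 genes tested passed in NAc, with 2748 at an unadjusted p under 0.05, and 944 genes passed without risk-averse animal R9, while DESeq2 called 566 genes and limma-voom 0 (2677 at an unadjusted p under 0.05). The 4 receptor genes were not among the DESeq2 calls (lowest DESeq2 adjusted p = 0.0720, for Grin2a). The unassigned share was 27.6% ± 2.61 in risk-averse and 25.7% ± 1.02 in risk-seeking NAc, and the ambiguous share 0.690% ± 0.0369 and 0.741% ± 0.0238 (SD over 9 libraries).

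Whether the preference difference was larger in PFC than in NAc was tested as an interaction over the 36 libraries. The log2 difference, PFC minus NAc, was -0.34 ± 0.21 (SE) for Grin2a, -0.28 ± 0.19 for Grin2b, -0.12 ± 0.09 for Gria1 and -0.09 ± 0.08 for Grin1. None passed (edgeR adjusted p = 0.981 each), and the interval for Grin2a ran from -0.77 to 0.08. No gene of 15936 passed this test (0%), with 387 at an unadjusted edgeR p under 0.05 and 0 called by DESeq2 (429 unadjusted) or limma-voom (365 unadjusted). With the animal as a replicate block over the 17 pairs the differences were -0.36 ± 0.16 (SE) for Grin2a, -0.32 ± 0.14 for Grin2b, -0.13 ± 0.06 for Gria1 and -0.10 ± 0.06 for Grin1. Their unadjusted edgeR p were 0.0417, 0.0331, 0.0413 and 0.129, and none passed (edgeR adjusted p = 0.436, 0.427, 0.436 and 0.547). The calls in PFC and their lack in NAc are therefore not shown to differ at the threshold used.

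**Figure D3:**
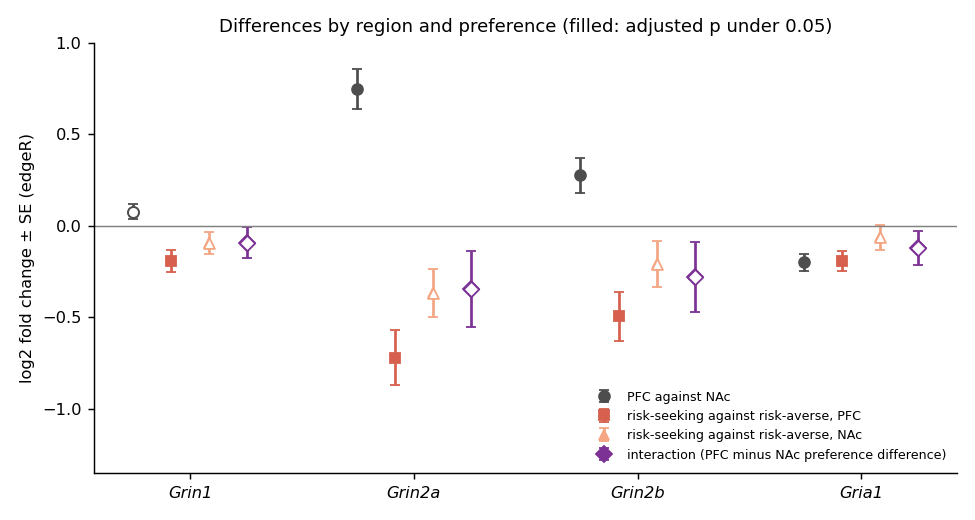
Log2 fold change ± SE of each gene for region, for preference in each region and for their interaction, by edgeR; filled symbols passed at an adjusted p under 0.05. Grin2a has both the highest region difference of the 4 genes (0.75) and the lowest preference difference in PFC (-0.72).

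Ordered by mean level, Grin2a went from risk-averse PFC (62.1 CPM) over risk-seeking PFC (38.02 CPM) and risk-averse NAc (32.8 CPM) to risk-seeking NAc (25.6 CPM). The middle pair lay closer together than the SD of either group, and the NAc groups closer than that of risk-averse NAc. Grin2b had risk-averse PFC at the top (45.9 CPM), and its other 3 groups, risk-averse NAc, risk-seeking PFC and risk-seeking NAc, lay between 34.3 and 29.8 CPM, each step smaller than the SD of either neighbour. Grin1 likewise had risk-averse PFC at the top (702 CPM) and the other 3 between 642 and 605 CPM, and no step between neighbours exceeded the SD of both. For Gria1 the order was risk-averse NAc (248 CPM), risk-seeking NAc (238 CPM), risk-averse PFC (226 CPM) and risk-seeking PFC (199 CPM), and only the step between the PFC groups exceeded the SD of both its neighbours.

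The balance of Grin2a against Grin2b was taken as the ratio of their counts within each library, which needs no scaling between libraries. It is a ratio of counts and not of transcripts, since the genes may differ in length, but a fixed length factor drops out when libraries are compared. In NAc the ratio was 0.908 ± 0.102 and in PFC 1.26 ± 0.177 (SD, n = 18 each). NAc libraries ran from 0.693 over a median of 0.914 to 1.079, and PFC libraries from 0.920 over 1.247 to 1.71. The mean log2 ratio was higher in PFC by 0.47 (permutation test, two-sided, p = 2e-05, the smallest that 100000 resamples can give, adjusted p = 8e-05 over 4 ratio tests). This test leaves out the pairing of libraries within animals. Paired within the 17 animals the difference was 0.48 (permutation test, p = 4e-05, adjusted p = 0.00016). In 16 of 17 animals the PFC ratio was the higher. The exception was the risk-seeking animal BR5, at 0.920 in PFC and 0.948 in NAc.

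Within PFC the ratio was 1.35 ± 0.172 in risk-averse and 1.16 ± 0.127 in risk-seeking animals (means ± SD of 9 libraries). Risk-averse libraries ran from 1.198 over a median of 1.30 to 1.71, and risk-seeking ones from 0.920 over 1.16 to 1.35. The highest were the risk-averse animals B2, at 1.71 (95% Wilson interval 1.59 to 1.84, counting error only), and B3, at 1.58 (1.47 to 1.69). The difference in mean log2 ratio was -0.22, risk-seeking minus risk-averse (exact permutation test, two-sided, p = 0.00868, adjusted p = 0.0174). The groups overlap, with 8 of 9 risk-seeking values under the median of the risk-averse ones. Without the 4 animals of highest unassigned share, B2 and B3 among them, it was -0.15 (exact permutation test, p = 0.04496, adjusted p = 0.0599). In a linear model it was -0.13 with the unassigned or the not-unique share and -0.04 with the ambiguous share, values chosen after the data were seen and given without a test.

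Within NAc the ratio was 0.959 ± 0.0846 in risk-averse and 0.858 ± 0.0958 in risk-seeking animals (means ± SD of 9 libraries). Risk-averse libraries ran from 0.827 over 0.989 to 1.079 and risk-seeking ones from 0.693 over 0.885 to 0.989. The groups overlap, with every risk-seeking value under the median of the risk-averse ones. The difference in mean log2 ratio was -0.16 (exact permutation test, two-sided, p = 0.0329, adjusted p = 0.0438). This call was borderline: it was lost on leaving out any 1 of 11 of the 18 libraries (highest exact permutation adjusted p = 0.0875, without risk-seeking animal B9, at a difference of -0.13). Without the 4 animals of highest unassigned share it was also lost (-0.16, exact permutation adjusted p = 0.103). In the linear model it was -0.13 with the unassigned share, -0.095 with the ambiguous share and -0.11 with the not-unique share, again without a test. The difference between regions in this preference difference was -0.03 on the log2 scale over the 17 animals (exact permutation p = 0.769).

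**Figure D4:**
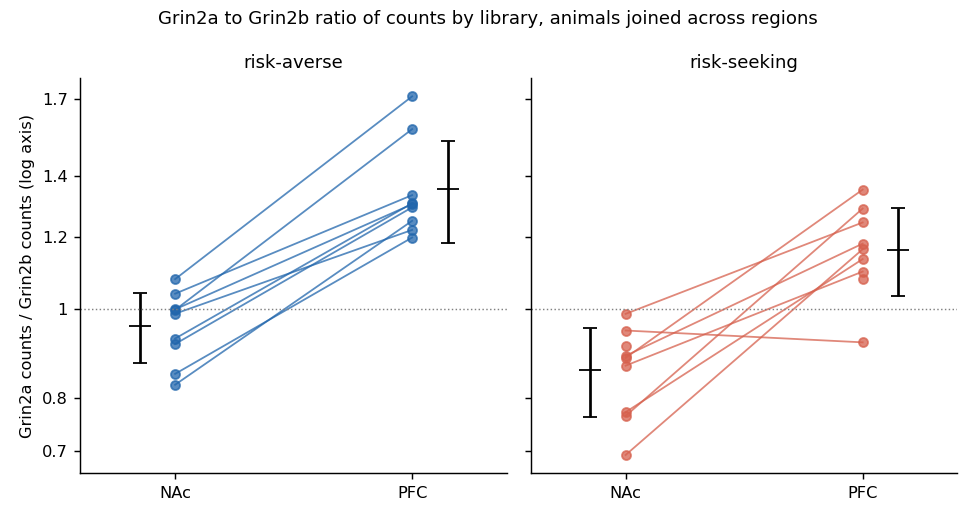
Ratio of Grin2a to Grin2b counts in each library on a log axis, with the NAc and PFC libraries of an animal joined by a line and the mean ± SD of each group drawn beside it. The lines rise from NAc to PFC in all but 1 animal, and the risk-seeking means (0.858 and 1.16) lie below the risk-averse ones (0.959 and 1.35).

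The other genes were also set against Grin1. Per 100 Grin1 counts there were 8.797 ± 1.77 Grin2a counts in risk-averse PFC, 6.18 ± 1.27 in risk-seeking PFC, 5.07 ± 1.01 in risk-averse NAc and 4.22 ± 0.643 in risk-seeking NAc (SD over 9 libraries). Grin2b stood at 6.49 ± 1.09, 5.34 ± 1.14, 5.32 ± 1.06 and 4.94 ± 0.649 in the same order. Gria1 stood at 32.3 ± 2.78 and 32.3 ± 2.52 in PFC, and at 38.7 ± 4.83 and 39.5 ± 3.78 in NAc (risk-averse first). These quotients are descriptions with no test.

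Spread among libraries of a group was wider for the GluN2 genes than for the other 2 genes. In risk-averse PFC the coefficient of variation was 25.6% for Grin2a and 23.2% for Grin2b, against 9.46% for Grin1 and 7.54% for Gria1. In risk-seeking PFC it was 20.2% and 18.7% against 7.95% and 8.25%.

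Grin2a and Grin2b also deviated together from library to library. After the mean of each of the 4 groups was taken out, their log2 CPM correlated at 0.88 over the 36 libraries, and 16 other genes were closer to Grin2a, among 10061 genes with a mean of at least 10 CPM. Grin2a correlated at 0.57 with Gria1, where 1026 other genes were closer to the latter, and at 0.54 with Grin1, where 1303 were. The gene most like Grin1 was ENSRNOG00000050748 (0.956) and the one most like Grin2b was ENSRNOG00000018012 (0.917), neither of which could be paired with a symbol. The highest correlations of another gene with Grin2a and Gria1 were 0.917 and 0.879. These correlations are descriptions: libraries share depth, read categories and, for 17 animals, the donor.

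**Figure D5:**
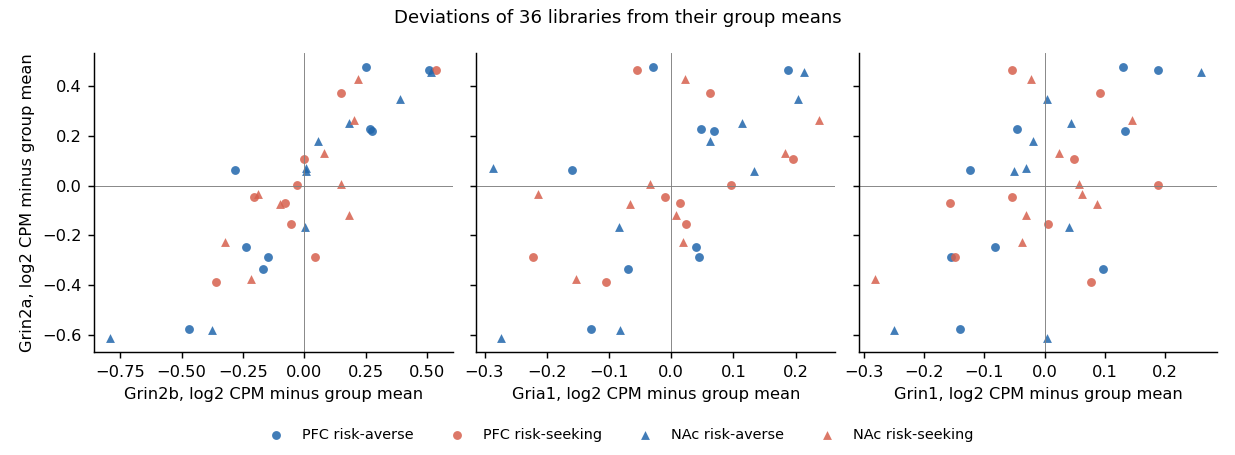
Deviation of Grin2a from its group mean, in log2 CPM, against that of Grin2b, Gria1 and Grin1 in the same libraries; each point is 1 of 36 libraries, with circles for PFC and triangles for NAc. The points follow a line for Grin2b (correlation 0.88) and scatter more for Gria1 (0.57) and Grin1 (0.54).

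Levels were also compared between the regions of the same animal, as deviations from the group means of log2 values over 17 animals, with permutations within preference groups and adjustment over 5 measures. Gria1 deviations correlated across regions, with Pearson's r = 0.705 (permutation p = 0.0020, adjusted p = 0.01) and Spearman's rho = 0.792 (permutation p = 0.00042, adjusted p = 0.0021), and r = 0.745 without the 2 animals farthest from the PFC median. The other measures did not pass. Pearson's r was 0.496 for Grin1 (permutation p = 0.0497, adjusted p = 0.124), 0.458 for Grin2b (p = 0.0940, adjusted p = 0.151), 0.425 for Grin2a (p = 0.121, adjusted p = 0.151) and 0.209 for the ratio (p = 0.435, adjusted p = 0.435). Without the 2 animals farthest from the PFC median of each measure, r was 0.434, 0.607, 0.279 and 0.323. Spearman's rho over all 17 was 0.549, 0.498, 0.483 and 0.297 in the same order (permutation, lowest adjusted p = 0.0634). Read categories also followed the animal: the 4 of highest unassigned share were B2, B3, BR9 and R7 in both regions. Mean Gria1 was also lowest under the same title code letters in both regions. These were B among risk-averse animals (203 CPM in NAc, 211 CPM in PFC) and BR among risk-seeking ones (218 and 177 CPM). The part of this share and of the code letters in the agreement between regions, that of Gria1 included, was not tested.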

How the data were processed

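Members and tests were chosen with earlier results of these data known. The authors deposited raw counts per gene for each library (Ensembl identifiers and 5 HTSeq summary categories). Per the submitters' processing notes, Trimmomatic, STAR 2.5.3a, HTSeq 0.9.0 and edgeR were used, with the builds Rnor_6.0 and rn6. The sources used here give no annotation release or strand setting, and without strand a gene's reads cannot be separated from those of an overlapping antisense gene. Per the labels' protocols, libraries were made with the TruSeq RNA kit from total RNA and sequenced as paired ends.

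Counts were tested with edgeR 4.0.16 in R 4.3.3 (filterByExpr, TMM, glmQLFit with robust=TRUE, glmQLFTest) over all genes, at a Benjamini-Hochberg adjusted p under 0.05. Each standard error is the size of the log2 fold change divided by the root of its F statistic. Region used all 36 libraries with preference as a covariate, preference the 18 of each region. Log2 CPM used a prior count of 2. DESeq2 1.42.0, limma 3.58.1 (voom), RLE factors, no count filter, covariates and left-out libraries were alternatives. Ratios were tested by permutation in SciPy 1.17.1. All members are named. Likeness is the correlation of group-centred log2 CPM, and at most 2 identifiers are printed: the top gene of the 2 members whose top correlations were highest. The pathway and marker lists, which need symbols, were not analysed here.

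Animals were identified from the title codes, so replicates are separate rats. Chi-square per degree of freedom was 6.62 to 42.2 in the 144 within-group library pairs, above sampling noise, so none was a repeat deposit. Regions of the same animal are paired by these codes. Their deviations correlated at -0.04 (animal B5) to 0.65, and 14 of 17 NAc libraries were closest to the PFC library of their own animal. The exceptions were B5, R1 and R9, which were kept in the paired comparisons. On simulated PFC counts (15128 genes), edgeR recovered 47 of 50 genes with a 1.5-fold change and 20 of 50 with a 1.25-fold change. In NAc (15418 genes) it recovered 39 and 26 of 50, and for the interaction (15936 genes) 36 and 14 of 50. The simulated libraries were independent, with no pairing of animals and no read category effects, and the changed genes were drawn at random. These counts check the fits and do not give the power for the receptor genes.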

Additional observations from a re-analysis of the deposited data

Results flagged for a closer look

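Of 20 groups of 9 libraries examined (4 genes and the Grin2a to Grin2b ratio in 4 groups), 2 held a library far from the others by Dixon's criterion, where chance flags about 1 in 20. Grin2b in risk-seeking PFC was at 47.0 CPM in animal B5, against 25.2 to 35.8 CPM in the other libraries. B5 was also the animal whose regions correlated least over all genes (-0.04), and its NAc library was not closest to its own PFC library. Grin1 in risk-seeking NAc was at 496 CPM in animal R1, against 588 to 667 CPM in the other libraries.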

How the results depend on the processing

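DESeq2, RLE factors, no count filter and limma-voom kept the direction and side of the threshold of all 4 genes in all 4 comparisons. So did the code letters as a covariate in PFC and NAc. Read category covariates and left-out animals did not. In PFC the log2 fold changes that lost their call were, for Grin1, Grin2a and Grin2b, -0.19, -0.67 and -0.54 with the unassigned share; for Grin1, Grin2a, Grin2b and Gria1, -0.13, -0.26, -0.22 and -0.11 with the ambiguous share, -0.12, -0.41, -0.28 and -0.16 with the not-unique share, and -0.14, -0.64, -0.49 and -0.22 with the 4 animals highest in unassigned share left out. The cause was not tested. In NAc, Grin1 (0.024) and Gria1 (0.014) changed sign with the ambiguous share, without passing before or after. Grin2a and Grin2b were at -0.18 and -0.07 with that share. With the unassigned share, Grin2a was at -0.46, Grin2b at -0.33 and Gria1 at -0.16, against -0.37, -0.21 and -0.06 without a covariate. Grin1 was at -0.06, against -0.09. None of the 4 passed with the unassigned share (edgeR adjusted p = 0.215, 0.293, 0.287 and 0.729 in that order). The number of genes called in PFC went from 3521 to 334 with the unassigned share, 0 with the ambiguous share (902 at an unadjusted edgeR p under 0.05), 1 with the not-unique share and 1 without the 4 animals. In NAc it went from 0 to 566 with DESeq2. With the animal as a replicate block, Grin1 passed between regions (0.077), and no other call of these genes changed; the interaction again called 0 genes (1776 at an unadjusted edgeR p under 0.05).

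Leaving out 1 library gave, in PFC, -0.22 to -0.17 for Grin1, -0.79 to -0.66 for Grin2a, -0.58 to -0.42 for Grin2b and -0.22 to -0.17 for Gria1, with 2264 to 4227 genes called. In NAc it gave -0.12 to -0.06, -0.43 to -0.31, -0.29 to -0.14 and -0.10 to -0.04, with 0 to 944 genes called, the highest number without risk-averse animal R9. The ratio's log2 difference ran from -0.25 to -0.18 in PFC and from -0.19 to -0.13 in NAc. It lost its call without the 4 animals (-0.15 in PFC, -0.16 in NAc) and, in NAc, as a difference in medians (-0.16). With read category shares as covariates, chosen after seeing the data, it was -0.13 (unassigned), -0.044 (ambiguous) and -0.13 (not-unique) in PFC and -0.13, -0.095 and -0.11 in NAc.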
